A study of Mus musculus with 29 samples.

Results

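Complement is a chain of plasma and tissue proteins that marks microbes and damaged cells. 9 of its genes were followed in the colon of mice with dextran sulfate sodium (DSS) colitis: C1qa, C1qb and C1qc, which encode the chains of the recognition molecule C1q, C2, C3, Cfb, the regulators Cfi and Cd55, and C3ar1, a receptor. A gene was read from the probe set that carries its symbol alone, and from the brightest such probe set where there were several. 8 of the 9 had such a probe set, each exactly 1, out of 19938 genes on the array, and C3 was not analysed here. Names are those of the array's annotation, and the Entrez identifiers of the 8 (12259, 12260 and 12262 for C1qa, C1qb and C1qc, 12263 for C2, 14962 for Cfb, 12630 for Cfi, 13136 for Cd55 and 12267 for C3ar1) carry the same symbols in RefSeq.

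RNA came from the most inflamed part of the colon of female C57BL6J mice, 1 array per mouse, in 6 groups. Acute colitis (n = 4) had 7 days of DSS and no recovery. The 1-cycle, 2-cycles and 3-cycles groups (n = 5 each) had 1, 2 or 3 rounds of 7 days of DSS, each followed by 2 weeks of normal water. The recovery group (2 cycles with recovery, n = 5) had 3 further weeks of normal water after 2 cycles, and control mice (n = 5) drank normal water throughout. All carried the same label age of 6 weeks, the age at the start of the experiment. The paper states that the mice were of the same age when killed. It also states that DSS was stronger in the later cycles than in the first, so dose and number of cycles cannot be told apart. 1 more acute array was not analysed here. The tissue is a bulk piece of colon, so more cells of a type and more RNA per cell cannot be told apart.

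Values are log2 expression values that the authors made with RMA, a method that corrects background, equalizes the arrays and summarizes the probes of a probe set. A difference of 1 is therefore a 2-fold difference. Colon epithelium was evident in every group, with group means of 13.28 to 13.35 for Krt8, a keratin of simple epithelium, and of 12.99 to 13.34 for Muc2, the intestinal mucin. Of 13 colon epithelium markers 3 fell and 1 rose in acute colitis, with Aqp8, a water channel, at -1.91 (adjusted p 4e-04) and Slc26a3, an anion exchanger, at -1.25 (adjusted p 0.000389), and 0 to 2 fell in each other DSS group. The median value of an array lay between 6.02 and 6.14. The arrays form 2 sets by a single probe set without an annotated gene: it was at least 11.09 in 15 arrays (the high set) and at most 8.14 in 14 (the low set). All 3-cycles and recovery arrays were in the high set and all 1-cycle and control arrays in the low set, while acute colitis had 2 in each and 2 cycles had 3 high and 2 low. Markers of squamous epithelium, which lines the anus and not the colon, averaged 7.84 to 9.99 on 4 recovery arrays (M1, M3, N2 and N3) and 7.79 on 3-cycles array G3, against 5.08 to 5.6 on every other array. Groups were compared with limma, which tests every probe set with a spread moderated across probe sets, in 1 fit of all 6 groups, with the Benjamini-Hochberg adjustment of each p-value taken across the 35511 probe sets. A member is said to have risen or fallen at an adjusted p under 0.05, and the count with a fold change above 2 in addition is given beside it.

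C1q binds antibody complexes and dying cells and starts the classical pathway, in which C2 and C4 are cut to form the enzyme that splits C3. Factor B, the product of Cfb, is the matching piece of the alternative pathway, which amplifies the reaction on the surface where it began. Cd55 takes these enzymes apart on the cell's own membrane and factor I, encoded by Cfi, cuts the C3 and C4 fragments that sustain them. The C3a receptor, encoded by C3ar1, passes the small fragment C3a as a signal to myeloid cells. Most plasma complement is made in the liver, but C1q is a well known product of tissue macrophages. Of 5 measured liver markers 2 fell in acute colitis, Alb (-0.64, adjusted p 0.00254) and Ttr (-2.19, adjusted p 2.51e-06), and after 3 cycles Ahsg rose (0.40, adjusted p 0.000973) and Ttr fell (-0.86, adjusted p 0.024). The group means were 4.88 to 5.54 for Alb, which encodes serum albumin, and 6.06 to 8.24 for Ttr, which encodes transthyretin. Those of Ahsg were low, at 4.6 to 5, and whether it was above background was not tested.

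C1qb, C1qc and C1qa lie next to each other on chromosome 4, and Cfb and C2 next to each other on chromosome 17 in the RefSeq gene table. C3ar1 is on chromosome 6, Cfi on chromosome 3 and Cd55 on chromosome 1, beside the near-identical Cd55b. Promoter windows were at hand for 4 of the 8 measured members, C1qb, C1qc, C3ar1 and Cd55. The Cd55 window matched none of the motifs below and is not shown. The 250 bases before the start of C1qb, C1qc and C3ar1 are shown. These genes rose in every DSS group, as did C1qa and C2. The windows shown are RefSeq sequences of build GRCm38.p6, on the minus strand, at chr4:136886201-136886450 for C1qb, chr4:136892915-136893164 for C1qc and chr6:122856158-122856407 for C3ar1. Capitals mark a match to GAGGAA or GAGGAAGT, the core and a longer form of the motif of PU.1, a factor of macrophages, on either strand, and the longer form holds the core.
C1qb: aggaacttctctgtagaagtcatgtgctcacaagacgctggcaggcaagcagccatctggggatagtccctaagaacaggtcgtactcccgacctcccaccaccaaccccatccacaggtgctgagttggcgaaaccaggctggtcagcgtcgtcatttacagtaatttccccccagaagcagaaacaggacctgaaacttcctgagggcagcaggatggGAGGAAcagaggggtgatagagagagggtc
C1qc: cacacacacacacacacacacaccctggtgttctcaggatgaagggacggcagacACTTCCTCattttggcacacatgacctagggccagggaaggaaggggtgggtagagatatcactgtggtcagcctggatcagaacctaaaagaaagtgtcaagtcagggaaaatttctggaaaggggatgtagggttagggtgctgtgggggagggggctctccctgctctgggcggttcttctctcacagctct
C3ar1: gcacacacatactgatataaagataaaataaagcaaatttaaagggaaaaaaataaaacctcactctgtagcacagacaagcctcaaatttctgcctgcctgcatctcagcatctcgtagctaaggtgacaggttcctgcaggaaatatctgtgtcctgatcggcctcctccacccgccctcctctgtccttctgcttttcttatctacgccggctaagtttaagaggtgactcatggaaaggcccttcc
C1qb held the core with its first base at -30 from the start. C1qc held the longer form from -195 and the core within it from -193, both on the opposite strand, and C3ar1 held neither. The core occurs in 23.3% and the longer form in 2.44% of the 32851 promoter windows of the same length. GAAANNGAA, an interferon-stimulated motif, and TTCNNNGAA, a gamma-activated motif, were searched in the same way and found in none of these windows, against 7.13% and 7.02% of all windows.

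The 3 C1q chains were higher in each of the 5 DSS groups than in control colon, by 1.78-fold to 2.40-fold. C1qb had values of 8.31, 9.48, 9.03 and 9.12 on the acute arrays B2, B3, B4 and C3, against 8.20, 7.99, 7.72, 7.63 and 8.20 on the control arrays A1, A2, A5, L1 and L2. After 1 cycle they were 9.07, 9.24, 9.62, 8.79 and 8.44, after 2 cycles 9.08, 9.01, 9.53, 9.07 and 9.34, after 3 cycles 8.78, 8.85, 9.05, 9.48 and 9.82, and after recovery 9.31, 9.42, 8.99, 9.17 and 8.67. No DSS array reached down to the controls, although acute replicate B2 came within 0.11 of the highest of them. The C1qb mean was 8.99 ± 0.49 over the 4 acute arrays, against 7.95 ± 0.27 over the 5 control arrays (SD), a log2 difference of 1.04 (SE 0.24, adjusted p from limma 0.00172). The difference from control was 1.09 after 1 cycle (adjusted p 0.00304), 1.26 after 2 cycles (adjusted p 0.000864), 1.25 after 3 cycles (adjusted p 0.000521) and 1.17 after recovery (adjusted p 0.00137), each with SE 0.22.

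C1qa separated the groups most cleanly of the 3 chains. Its lowest value in any DSS group was 7.19, on acute array B2, and the next lowest was 7.37 after recovery, against 6.71 to 6.88 in control mice. It averaged 7.85 ± 0.46 (SD, n = 4) in acute colitis, 7.85 ± 0.27 after 1 cycle, 7.86 ± 0.23 after 2 cycles, 7.82 ± 0.35 after 3 cycles, 7.71 ± 0.22 after recovery and 6.78 ± 0.07 in control mice (SD, n = 5 each). The log2 differences from control were 1.06, 1.06, 1.08, 1.04 and 0.93 in that order, with adjusted p-values of 9.15e-05 to 0.00105. C1qc ranged from 7.33 to 8.71 in acute colitis, 7.47 to 8.68 after 1 cycle, 7.91 to 8.54 after 2 cycles, 7.99 to 8.85 after 3 cycles and 7.90 to 8.60 after recovery, against 7.04 to 7.51 in control mice. 2 arrays, acute B2 and 1-cycle K3, fell within the control range of C1qc. Its log2 difference was 0.91 in acute colitis (adjusted p 0.00602), 0.83 after 1 cycle (adjusted p 0.0225), 0.94 after 2 cycles (adjusted p 0.0114), 1.12 after 3 cycles (adjusted p 0.0014) and 1.07 after recovery (adjusted p 0.00311). The rise of C1qc after 1 cycle was lost when control A5 or L1, or 1-cycle J1, J5 or K1, was left out. It was also lost within the low set of arrays, which holds all 1-cycle and control arrays.

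C2, the classical pathway protease that pairs with C4, also rose in every DSS group. Its values were 5.73, 6.97, 6.77 and 6.39 in acute colitis and 5.48, 5.40, 5.34, 5.44 and 5.44 in control mice. The lowest value in the other DSS groups was 5.89 after 1 cycle, 5.99 after 2 cycles, 5.90 after 3 cycles and 5.86 after recovery, so that no DSS array overlapped the controls. The highest, 7.17, was on 3-cycles array G3. The log2 difference from control was 1.05 in acute colitis (SE 0.25, adjusted p 0.00243), 0.87 after 1 cycle (SE 0.23, adjusted p 0.0214), 0.91 after 2 cycles (adjusted p 0.0177), 0.99 after 3 cycles (adjusted p 0.0047) and 0.89 after recovery (adjusted p 0.0138). The rise after 1 cycle was lost without control A5 or 1-cycle J1 or K1, and that after 2 cycles without 2-cycles E2. Control values of C2 spread less (SD 0.05) than those of any DSS group (SD 0.30 to 0.55).

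**Figure D1:**
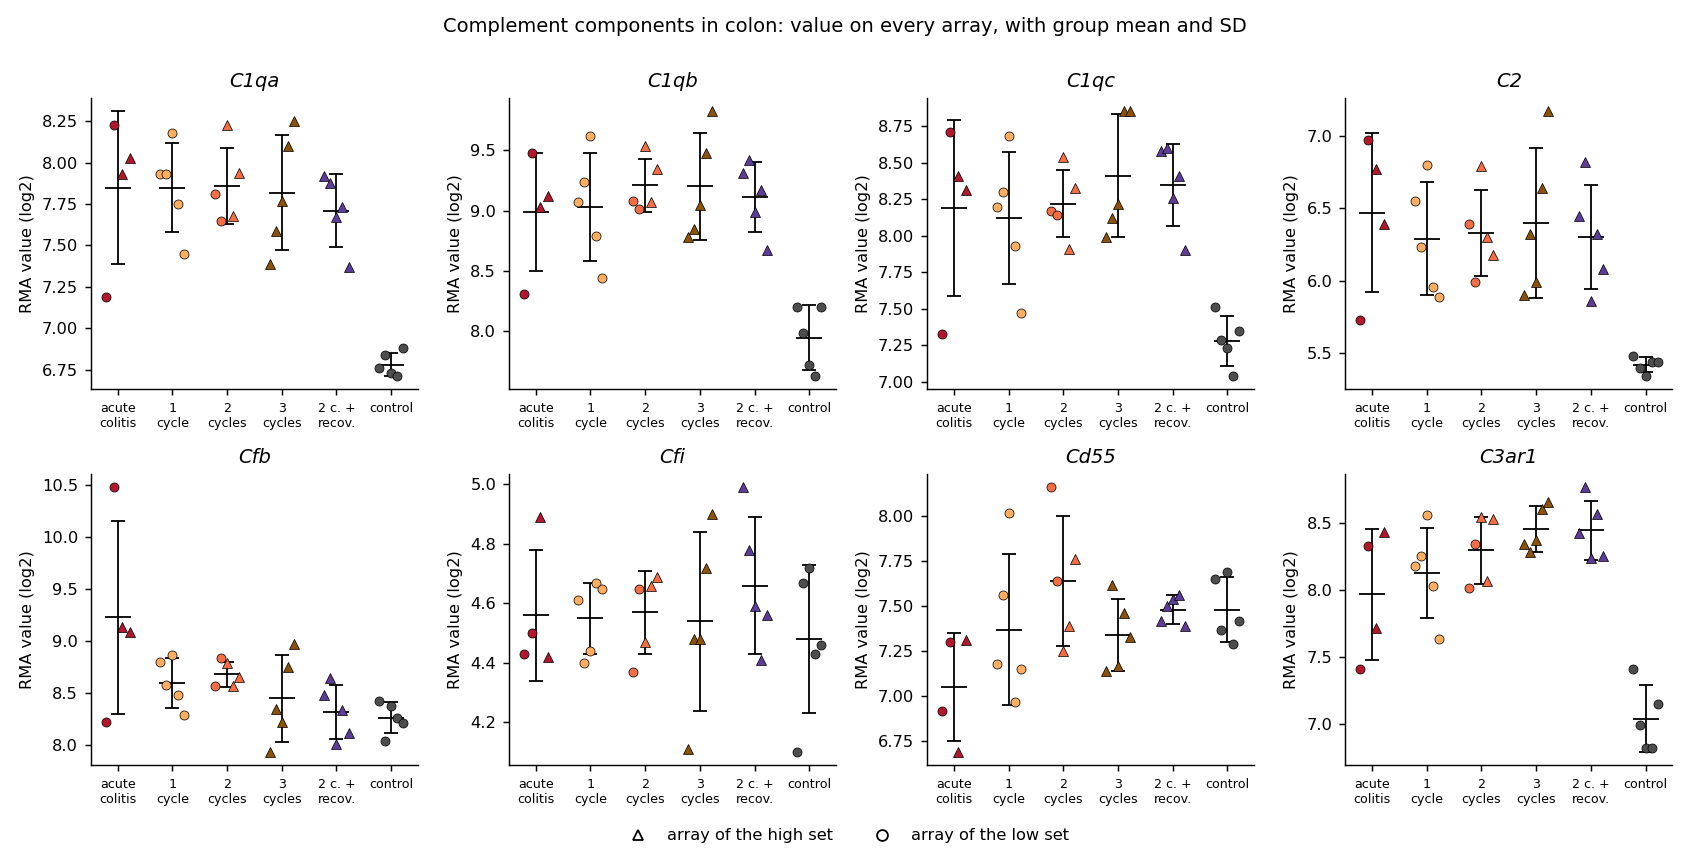
RMA value (log2) of 8 complement genes on each of 29 arrays, with 1 panel per gene and the groups in order from acute colitis to control. Triangles are arrays of the high set and circles of the low set, and the line and bar give the group mean and SD. For C1qa every DSS array was at or above 7.19 and every control array at or below 6.88, while Cfb stood highest at 10.48 on 1 acute array.

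Cfb passed the test in acute colitis and in 0 of the 4 other DSS groups. It measured 8.22, 10.48, 9.14 and 9.09 on acute arrays B2, B3, B4 and C3, against 8.42, 8.04, 8.37, 8.26 and 8.21 in control mice. B3 was the highest of all 29 arrays, whereas B2 lay within the control range. The mean of the 4 acute arrays was 9.23 ± 0.93 and that of the 5 control arrays 8.26 ± 0.15 (SD), a log2 difference of 0.97 (SE 0.26, adjusted p 0.0074). Without B3 the difference was 0.56 (adjusted p 0.0492) and without B2 it was 1.31 (adjusted p 0.000149). In a fit of the compared groups alone the adjusted p of acute colitis was 0.0939 and that of 2 cycles, at a log2 difference of 0.42, was 0.0129, so that the calls of these groups changed places. The chronic groups gave differences of 0.34 after 1 cycle (95% interval -0.17 to 0.85, adjusted p 0.511), 0.42 after 2 cycles (-0.09 to 0.93, adjusted p 0.375) and 0.19 after 3 cycles (-0.32 to 0.69, adjusted p 0.641), and recovery gave 0.06 (-0.45 to 0.57, adjusted p 0.914). All 5 arrays after 2 cycles, at 8.57 to 8.84, nevertheless lay above the highest control at 8.42.

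Whether acute colitis itself differed from the later groups was tested directly. Against the mean of 1, 2 and 3 cycles the log2 difference of Cfb was 0.66 (95% interval 0.20 to 1.11) and missed the threshold at an adjusted p of 0.0505. It was 0.24 (adjusted p 0.475) without B3, and 0.99 (adjusted p 0.00131) without B2. Against recovery the difference was 0.92 (SE 0.26, adjusted p 0.0217), with means of 9.23 in acute colitis and 8.32 ± 0.26 (SD, n = 5) after recovery. That call was lost without B3 (0.50, adjusted p 0.125) or M5 (0.84, adjusted p 0.0567), with the sets of arrays as a covariate (0.86, adjusted p 0.0685), in a fit of the compared groups alone (adjusted p 0.21) and without the squamous arrays (1.23, adjusted p 0.158). Within the high set it passed (0.80, adjusted p 0.0454). Of the 10 pairs of DSS groups, this was the only one that passed for Cfb.

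The regulators did not rise. Cd55 had 6.92, 7.30, 6.69 and 7.31 in acute colitis, against 7.65, 7.37, 7.69, 7.29 and 7.42 in control mice. 2 acute arrays, B2 and B4, lay below every control, and the log2 difference was -0.43 (SE 0.18, 95% interval -0.80 to -0.06), with an adjusted p of 0.0877. The other DSS groups differed from control by -0.14 to 0.16, with adjusted p-values of 0.599 to 0.998. In the 2-cycles group Cd55 spread from 7.25 to 8.16. The difference of acute colitis from 2 cycles was -0.59 (SE 0.18, adjusted p 0.0378), the only 1 of 10 pairs of DSS groups that passed. That call was lost without any of acute B2 or B4 or 2-cycles D4, D5 or E4. It was also lost in a fit of the compared groups alone, with array weights, and within the low or the high set of arrays. With the sets of arrays as a covariate it passed (-0.61, adjusted p 0.0237). Cfi ranged from 4.42 to 4.89 in acute colitis, 4.40 to 4.67 after 1 cycle, 4.37 to 4.69 after 2 cycles, 4.11 to 4.90 after 3 cycles and 4.41 to 4.99 after recovery, against 4.10 to 4.72 in control mice. The groups overlapped throughout, and the log2 differences from control were 0.06 to 0.19 with adjusted p-values of 0.388 to 0.848. The files give no background level, so whether Cfi was above background was not tested.

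C3ar1 had the largest rises of the 8 members after 3 cycles and after recovery. After 1 and 2 cycles its rises, 1.10 and 1.27, were level with those of C1qb, 1.09 and 1.26. The acute values of C3ar1 were 7.41, 8.33, 7.72 and 8.44, against 7.41, 6.99, 6.82, 6.82 and 7.15 in control mice. They were 8.18, 8.26, 8.56, 8.03 and 7.64 after 1 cycle, 8.02, 8.35, 8.55, 8.07 and 8.53 after 2 cycles, 8.35, 8.29, 8.38, 8.61 and 8.66 after 3 cycles, and 8.43, 8.77, 8.24, 8.57 and 8.26 after recovery. Only acute B2 reached the control range, and the lowest 3-cycles array stood 0.89 above the highest control. The log2 difference from control was 0.94 in acute colitis (SE 0.19, adjusted p 0.000541), 1.10 after 1 cycle (SE 0.18, adjusted p 0.00041), 1.27 after 2 cycles (adjusted p 9.05e-05), 1.42 after 3 cycles (adjusted p 1.17e-05) and 1.41 after recovery (adjusted p 3e-05). The order of the group means was 8.46 after 3 cycles, 8.45 after recovery, 8.30 after 2 cycles, 8.13 after 1 cycle, 7.97 in acute colitis and 7.04 in control mice. Of the 10 pairs of DSS groups 0 passed (lowest adjusted p 0.1, for acute colitis against 3 cycles at -0.49, SE 0.19). Only the differences from control passed the threshold. For 3 cycles against 1 cycle the difference was 0.33 (95% interval -0.04 to 0.69, adjusted p 0.33).

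**Figure D2:**
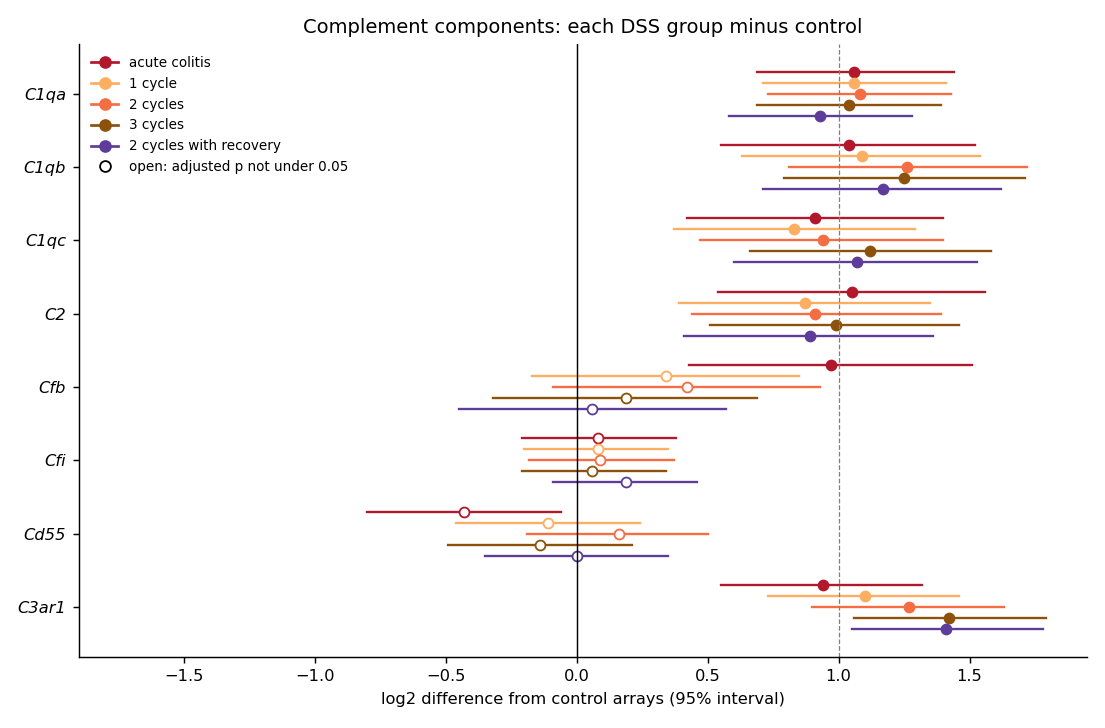
log2 difference of each DSS group from control colon for the 8 members, with 95% intervals from limma and 1 colour per group. Filled points had an adjusted p under 0.05, and the dashed line marks a 2-fold rise. C1qa, C1qb, C1qc, C2 and C3ar1 were filled in all 5 groups, Cfb in acute colitis only, and Cfi and Cd55 in none.

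Counted over the members, 6 of 8 rose in acute colitis and 5 of 8 in each of the 4 other DSS groups, and 0 fell. Over all probe sets the share that rose was 11.4% in acute colitis, 3.4% after 1 cycle, 3.08% after 2 cycles, 8.81% after 3 cycles and 6.05% after recovery. With a fold above 2 as well, 3 members were called higher in acute colitis, where 1.38% of all probe sets were, 3 after 1 cycle (0.87%), 3 after 2 cycles (0.907%), 4 after 3 cycles (1.02%) and 3 after recovery (1.08%). The median log2 difference of the 8 was 0.95 in acute colitis, 0.85, 0.92 and 1.01 after 1, 2 and 3 cycles and 0.91 after recovery, against medians over all probe sets of 0.04, -0.01, -0.01, 0.02 and 0. Several members sit close to 2-fold, so the second count is unsteady. In acute colitis it was 0 without B3, 6 without B2 and 5 without control A1, and after 1 cycle it was 0 without K1. The count of members that rose after 1 cycle was 3 without control A5 or 1-cycle J1 or K1. All 5 comparisons share the same control arrays.

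In the 3 comparisons set up between DSS groups no member passed. In acute colitis against the mean of the chronic groups 0 of 8 passed, where 12.3% of all probe sets did in either direction. The interval of the difference was -0.31 to 0.32 for C1qa, -0.57 to 0.24 for C1qb, -0.47 to 0.36 for C1qc, -0.30 to 0.55 for C2 and -0.65 to 0 for C3ar1. For Cfb it was 0.20 to 1.11, for Cd55 -0.71 to -0.09 (adjusted p 0.0883) and for Cfi -0.24 to 0.25. In recovery against 2 cycles 0 of 8 passed, where 0.279% of all probe sets did, and in 3 cycles against 1 cycle 0 of 8, where 1.77% did. For recovery against 2 cycles the intervals ran from -0.50 to 0.20 for C1qa, -0.55 to 0.36 for C1qb and -0.22 to 0.51 for C3ar1. Over the 10 pairs of DSS groups the largest difference was 0.15 for C1qa, 0.22 for C1qb, 0.29 for C1qc and 0.18 for C2 in either direction, and 0 pairs passed for these genes.

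The 2 sets of arrays bear on these counts, since control arrays are all low and 3-cycles and recovery arrays all high. Within acute colitis the high arrays exceeded the low arrays by 0.18 to 0.35 for the C1q chains, 0.23 for C2 and 0.21 for C3ar1, and within 2 cycles by 0.10 to 0.27, 0.24 and 0.19. For Cfi the high arrays were above by 0.20 and 0.09. Cfb and Cd55 went the other way, at -0.23 and -0.11 within acute colitis and -0.03 and -0.43 within 2 cycles. With the set in the model all 6 members still rose in acute colitis and all 5 after 1 cycle. After 2 cycles 3 did, namely C1qa (0.93, adjusted p 0.0134), C1qb (1.12, adjusted p 0.025) and C3ar1 (1.14, adjusted p 0.00425). After 3 cycles and after recovery 1 did, C3ar1 (1.22, adjusted p 0.0214, and 1.21, adjusted p 0.0313). C1qa then differed by 0.80 after 3 cycles (SE 0.25, adjusted p 0.123) and by 0.69 after recovery (SE 0.25, adjusted p 0.236). Within the low set alone, with 2 acute or 2-cycles arrays against 5 control arrays, C1qa differed by 0.93 in acute colitis (adjusted p 0.0207) and by 0.95 after 2 cycles (adjusted p 0.0628). There 1 member passed in acute colitis and 0 after 2 cycles. All 1-cycle arrays are low too, and within the low set the rise of C1qc after 1 cycle was lost. The rises of C1qa, C1qb, C2 and C3ar1 after 1 cycle were kept there. Without G3, the squamous array of the 3-cycles group, all 5 members still rose after 3 cycles. Without its 4 squamous arrays recovery was left with 1 array, M5, whose differences from control were 0.88 for C1qa, 1.04 for C1qb, 0.98 for C1qc, 0.45 for C2 and 1.20 for C3ar1, with 0 of 8 passing. The C2 difference was 0.89 with all 5 recovery arrays.

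Markers of the cells that could carry these transcripts moved too. Of 12 macrophage and monocyte markers, 7 rose and 2 fell in acute colitis, 6 rose after 1 cycle, 7 after 2 cycles, 6 after 3 cycles and 5 after recovery, with 1 falling in each of these 4. Their mean level ranged from 6.85 to 8.07 in acute colitis, 7.02 to 7.54 after 1 cycle, 7.17 to 7.5 after 2 cycles, 7.03 to 7.52 after 3 cycles and 7.05 to 7.39 after recovery, against 6.58 to 6.93 in control mice. Adgre1, encoding the macrophage antigen F4/80, differed from control by 0.90 in acute colitis (adjusted p 0.0141) and 0.78 after 3 cycles (adjusted p 0.0303). Cd68, a lysosomal protein of macrophages, differed by 1.09 (adjusted p 0.00178) and 1.11 (adjusted p 0.00201). The markers that fell were Mrc1 (-0.54, adjusted p 0.0142) and Mertk (-0.47, adjusted p 0.015) in acute colitis and Cd163 (-0.40, adjusted p 0.00359) after 3 cycles. Acute B2, which was low for most members, had the lowest macrophage mean of any DSS array, within the control range. Across the 29 arrays the mean of the C1q chains followed the macrophage mean with Pearson's r of 0.91, and 0.92 after the group means were removed. The r was 0.84 with interferon gamma genes (0.85 within groups), 0.71 with NF-kB genes (0.75 within groups), 0.61 with neutrophil markers (0.69 within groups) and -0.45 with colon epithelium markers (-0.44 within groups). It was 0.69 with B cell markers (0.59 within groups) and 0.62 with markers of stroma, the connective tissue (0.68 within groups). These are descriptions over arrays that share tissue composition, and the part of macrophage number in the C1q values was not tested.

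C2 followed the macrophage mean with r of 0.88 (0.78 within groups) and the mean of genes induced by interferon gamma with r of 0.87 (0.83 within groups). Its r was 0.79 with NF-kB genes (0.78 within groups) and 0.71 with neutrophil markers (0.74 within groups). Of 7 measured interferon gamma genes, 7 rose in acute colitis, 6 after 1 cycle, 5 after 2 cycles, 7 after 3 cycles and 5 after recovery. Their mean level was 7.91 to 9.99 in acute colitis and 7.48 to 9.12 over the other DSS groups, against 6.47 to 6.73 in control mice. The part of interferon gamma in the C2 values was not tested.

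Cfb was set against neutrophil markers too. Of 10 neutrophil markers, 7 rose in acute colitis, 0 after 1 and 2 cycles, 1 after 3 cycles and 2 after recovery. Their mean level ranged from 5.85 to 8.35 in acute colitis, against 5.39 to 5.47 in control mice, and B3 had the highest and B2 the lowest of the 4 acute arrays, as for Cfb. Over the 29 arrays the r of Cfb was 0.91 with the neutrophil mean (0.89 within groups), 0.89 with the mean of 10 genes induced through NF-kB (0.89 within groups) and 0.80 with the macrophage mean (0.86 within groups). Of those NF-kB genes 8 rose in acute colitis, 2 after 1 cycle, 4 after 2 cycles, 5 after 3 cycles and 6 after recovery. The part of neutrophils in the Cfb values was not tested.

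**Figure D3:**
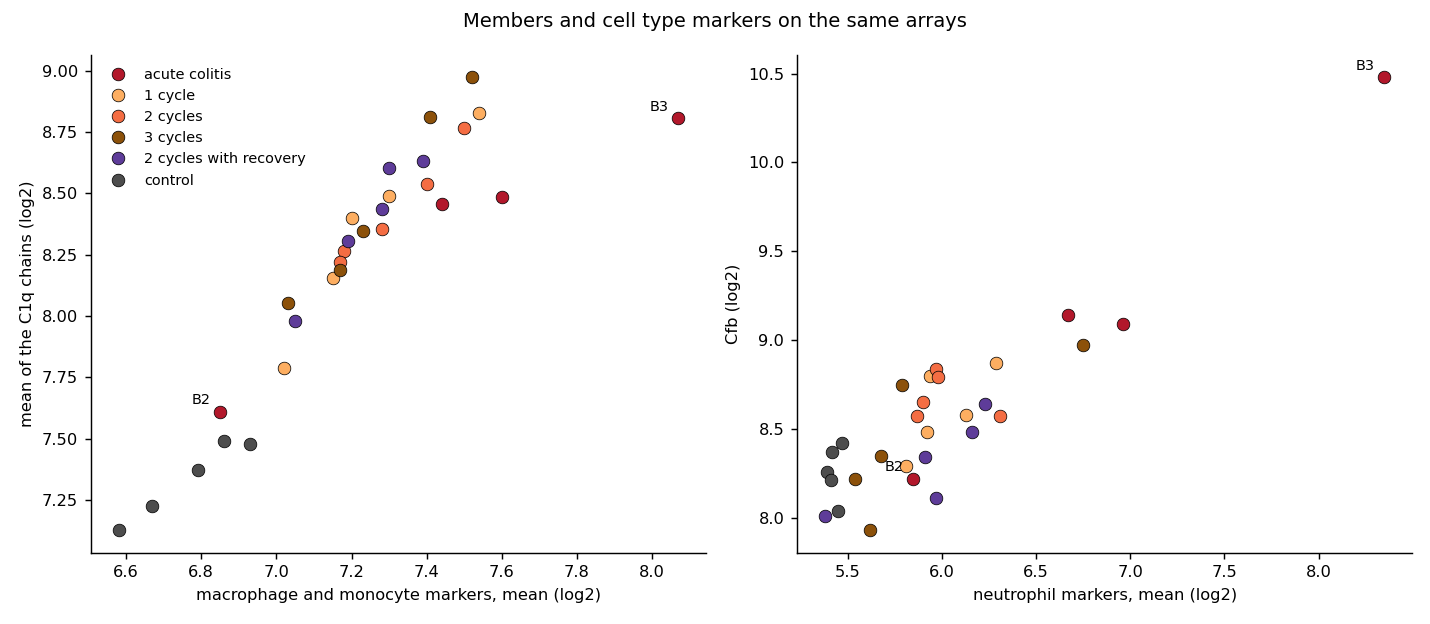
Mean of C1qa, C1qb and C1qc against the mean of the macrophage and monocyte markers (left) and Cfb against the mean of the neutrophil markers (right), all in log2 units, with 1 point per array coloured by group. Pearson's r was 0.91 in both panels over 29 arrays, and acute arrays B2 and B3 are labelled because they lie at opposite ends of their group.

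The C1q chains, C2 and C3ar1 also resembled each other, with r of 0.78 to 0.97 between any pair of them. C1qb correlated with C1qc at 0.97, with C1qa at 0.96 and with C3ar1 at 0.93, and C2 with C1qa at 0.92. Cfb correlated with C1qb at 0.53 only, and at 0.75 within groups, and with C3ar1 at 0.33 (0.66 within groups). Cfi and Cd55 did not follow the other members, with r of -0.20 to 0.34 in all their pairs. Over 29 arrays the genes most like C1qa were Sla (0.97), H2-Ab1 (0.96) and C1qb (0.96). C1qb was closest to C1qc, C1qa and Laptm5 (0.96), and C1qc to C1qb, Selplg (0.95) and Vsir (0.95). C2 was most like Pld4 (0.95), H2-DMa (0.94) and Cxcl16 (0.94), and C3ar1 most like C1qb (0.93), Ms4a7 (0.91) and Vsir (0.91). For Cfb the closest were Samhd1 (0.93), Nlrp3 (0.92) and Trem1 (0.92), for Cd55 Bmp2k (0.84), Jak1 (0.81) and Osbpl8 (0.79), and for Cfi Krt33a (0.83), Mafa (0.75) and Tmem211 (0.75).

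Of 41 further complement genes 38 were measured. 13 rose and 3 fell in acute colitis, 8 rose and 0 fell after 1 cycle, 10 and 0 after 2 cycles, 12 and 1 after 3 cycles, and 12 and 2 after recovery. Over all probe sets the share that fell was 11.6% in acute colitis, 3.54% after 1 cycle, 2.51% after 2 cycles, 9.26% after 3 cycles and 6.61% after recovery, and the shares that rose are given above. The 3 of 38 that fell in acute colitis are no larger a share than that of all probe sets. The median log2 difference of the 38 was 0.06 to 0.15 in the 5 groups. Among the classical and lectin pathway genes, the C1q chains included, 9 of 17 rose in acute colitis, 6 after 1 cycle and 8 in each of the other groups, and 0 fell. C4b, which encodes the C4 that pairs with C2, rose in all 5 groups by 1.24, 1.06, 1.29, 1.51 and 1.43 from acute colitis to recovery (adjusted p 9.69e-05 to 0.0041). It averaged 8.79 ± 0.65 (SD, n = 4) in acute colitis and 9.07 ± 0.40 after 3 cycles, against 7.56 ± 0.16 in control mice (SD, n = 5 each), and no DSS array overlapped the controls. Its near-identical copy C4a may share probes with it. Of the 7 terminal components, which build the membrane attack complex, 2 rose in acute colitis and 1 in each other group, with log2 differences of -0.07 to 0.40, so few that their share cannot be set apart from the 11.4% and 8.81% of all probe sets that rose in acute colitis and after 3 cycles.

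Among the other regulators, Clu, encoding clusterin, an inhibitor of the terminal complex, measured 7.03 to 8.16 in acute colitis, 8.23 to 9.28 after 1 cycle, 8.61 to 10.3 after 2 cycles, 8.01 to 9.32 after 3 cycles and 7.88 to 9.18 after recovery, against 7.16 to 8.08 in control mice. It did not pass in acute colitis (0.04, adjusted p 0.951) and rose by 1.06, 1.45, 0.94 and 1.08 in the later groups (adjusted p 0.00476 to 0.0367). The rise after 1 cycle was lost without any of A1, A5, L1, L2, J1, J5, K1 or K2, that after 3 cycles without any of A1, A5, L1, L2, F3, G2 or G3, and that after recovery without any of A1, L1, M1, M3 or N2. Acute colitis was below the mean of the chronic groups by a log2 difference of -1.11 (adjusted p 0.00751). In acute colitis 3 of the 11 measured regulators fell, where 11.6% of all probe sets did, and 1 rose, all named here after their values were seen. Those that fell were Cd59a, which blocks the terminal complex (-0.97, adjusted p 0.000995), C4bp, which binds C4 fragments (-0.71, adjusted p 0.00296), and Cd46 (-0.42, adjusted p 0.0327), and Serping1, the inhibitor of C1r and C1s, rose (0.52, adjusted p 0.0391). Cd46 was low, with means of 4.83 in acute colitis and 5.24 in control mice, and whether it was above background was not tested.

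Among receptors, integrin chains that form complement receptors rose too, Itgb2 and Itgax in all 5 groups and Itgam in acute colitis only. Itgb2, the shared chain, differed from control by 1.83 in acute colitis and by 1.32 to 1.40 in the later groups (adjusted p 6.24e-05 to 0.004), and Itgax by 0.87 to 1.23 in all 5 (adjusted p 0.000128 to 0.00475). Itgam rose by 1.68 in acute colitis (adjusted p 6.5e-05), and its later differences of 0.57 to 0.65 did not pass (adjusted p 0.0866 to 0.227). Acute colitis exceeded the mean of the chronic groups for Itgam by 1.06 (adjusted p 0.00263). Of the 9 receptors, C3ar1 included, 5 rose in acute colitis, 5 after 1 cycle, 5 after 2 cycles, 6 after 3 cycles and 7 after recovery. After 3 cycles and after recovery 1 fell, Vsig4, with means of 4.15 and 4.08 against 4.41 in control mice. Whether Vsig4 was above background was not tested. Cr2, the receptor for C3 fragments on B cells and follicular dendritic cells, rose in each of the later groups and did not pass in acute colitis. It measured 4.54 to 5.80 in acute colitis, 6.61 to 7.52 after 1 cycle, 6.44 to 7.70 after 2 cycles, 5.24 to 7.38 after 3 cycles and 4.93 to 7.18 after recovery, against 4.38 to 5.33 in control mice. The differences were 0.20 in acute colitis (adjusted p 0.781), 1.91 after 1 cycle (adjusted p 0.00378), 1.9 after 2 cycles (adjusted p 0.00432), 1.3 after 3 cycles (adjusted p 0.0249) and 1.21 after recovery (adjusted p 0.0452), and acute colitis lay below the chronic mean (log2 difference -1.5, adjusted p 0.00513). The rise of Cr2 after 3 cycles was lost without any of A1, L1, F3 or G2 and that after recovery without any of A1, A5, L1, L2, M1, M3 or N2. With the 4 squamous recovery arrays left out, the remaining array, M5, differed from control by -0.06 (adjusted p 0.986). Of 7 B cell markers 0 rose in acute colitis, 7 after 1 cycle, 6 after 2 cycles, 5 after 3 cycles and 6 after recovery, and their part in the Cr2 values was not tested.

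**Figure D4:**
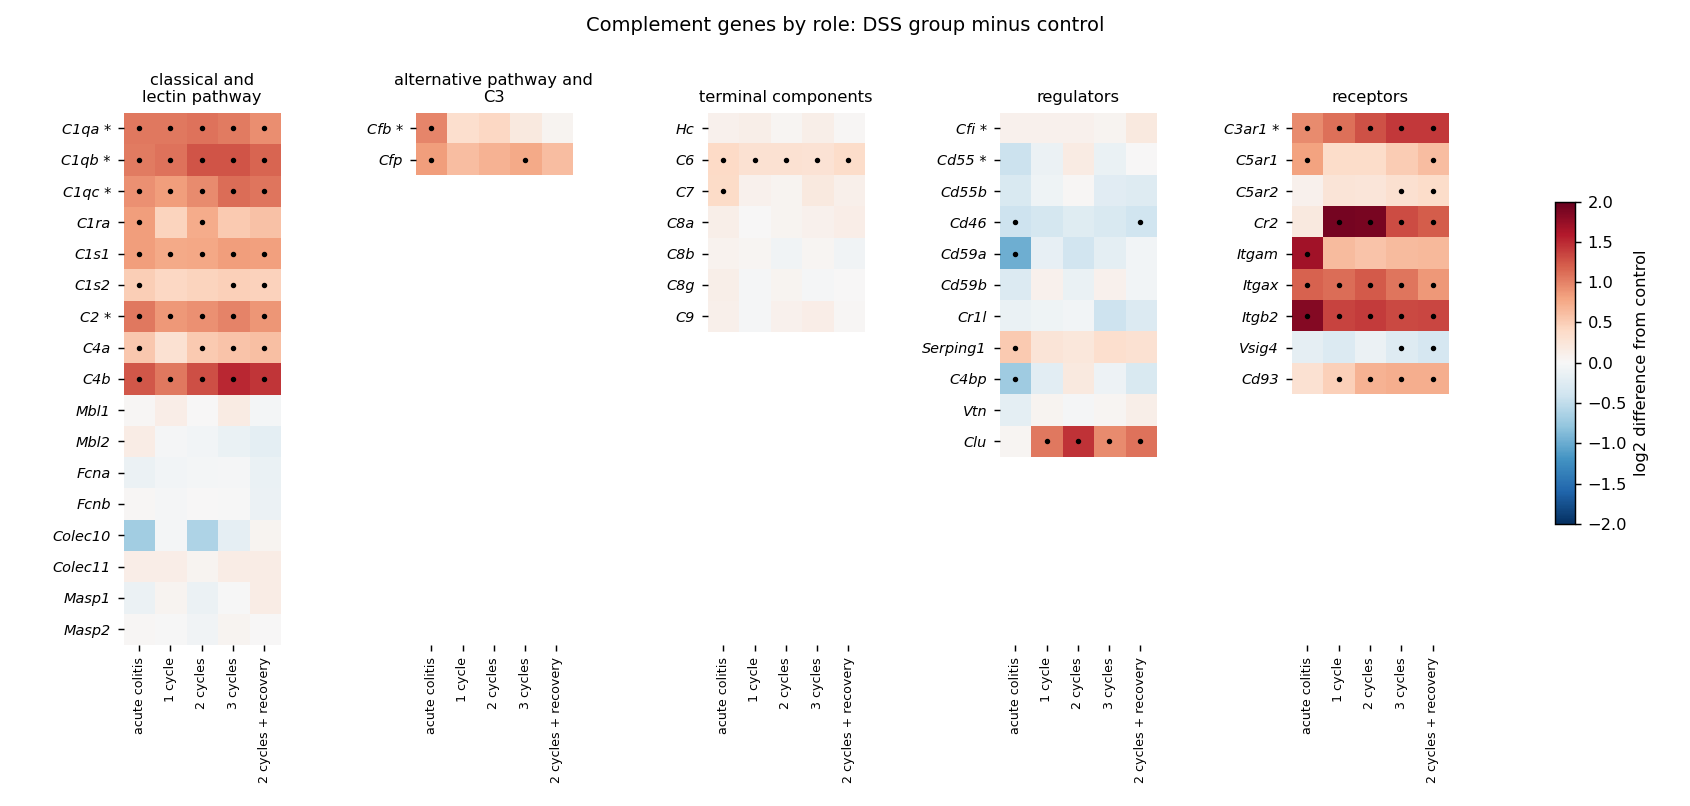
log2 difference from control for 46 measured complement genes in 5 panels by role, with rows as genes, columns as the DSS groups and a colour scale from -2 to 2. Dots mark an adjusted p under 0.05 and asterisks the 8 members. The classical components and the receptors hold most of the dots, and Cr2 and Clu have theirs in the later groups only.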

How the data were processed

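Total RNA from colon of 29 mice was hybridised to Affymetrix Mouse Gene 1.0 ST arrays, 1 per mouse. The authors deposited log2 expression values of 35511 probe sets (1.93 to 13.97), made with RMA (R 2.12.2 per the submitters' processing notes), and no scanner files were used here. The array annotation gives 1 gene symbol for 21789 probe sets, several for 1621 and none for 12101. Groups came from the labels. Correlations between arrays were 0.943 to 0.992, and the number of arrays limits the precision.

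A linear model with 6 group means was fitted to every probe set with limma 3.58.1 in R 4.3.3, with moderated statistics and Benjamini-Hochberg adjustment over all probe sets. The script was tested on simulated data. 8 comparisons were made, 5 with control. Members, gene lists and tests were chosen with earlier results of these data known. All members are named. Other complement genes are named by largest change among those past both thresholds, with those named after their values were seen marked so, and 3 genes per member by Pearson's r over all arrays. The PU.1 core motif was added after the longer form had been searched. Alternatives were other normalization, filters, array weights, random block, array sets as covariate, fits within a set and leaving out each array. Leaving out the squamous arrays was added after seeing the data.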

Additional observations from a re-analysis of the deposited data

Results flagged for a closer look

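Cfi on acute array B4, at 4.89, stood apart from the other acute arrays (4.42 to 4.5), the only value to do so among 48 groups of values looked at, where chance gives about 1 in 20.

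Among the 46 measured complement genes, 7 differed between acute colitis and the mean of 1, 2 and 3 cycles. That is close to the share of all probe sets that differed there in either direction, 12.3%. In another pair of DSS groups 2 members differed. Acute colitis against the mean of 1, 2 and 3 cycles gave log2 differences of -1.11 for Clu (adjusted p from limma 0.00751), -1.5 for Cr2 (adjusted p 0.00513) and 1.06 for Itgam (adjusted p 0.00263). It gave -0.73 for Cd59a (adjusted p 0.00555), -0.68 for C4bp (adjusted p 0.00204), -0.32 for Cd93 (adjusted p 0.0497) and 0.28 for C7 (adjusted p 0.00683). Cfb was higher in acute colitis than after recovery by 0.92 (adjusted p 0.0217), and Cd55 differed between acute colitis and 2 cycles by -0.59 (adjusted p 0.0378). These were the passing pairs among 10 tested for each of the 8 members. The Cfb call was lost without B3 or M5, with the sets of arrays as a covariate and in a fit of the compared groups alone. The Cd55 call was lost in 9 of 20 alternatives.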

How the results depend on the processing

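Of 1384 alternative values of single members, 1325 kept their side of the threshold, 50 lost the call, 9 gained one and 0 called values reversed, while values that passed neither before nor after could change sign. Of 6262 for other complement genes 5959 kept their side, 228 lost and 74 gained a call, and 1 reversed, Cr2 in recovery against control (-0.06, adjusted p 0.986, without the squamous arrays). With the sets of arrays as a covariate the count of members past both thresholds was 1 in acute colitis, 1 after 3 cycles and 1 after recovery, and the count that rose was 3 after 2 cycles, 1 after 3 cycles and 1 after recovery. Within the low set the counts past both thresholds were 0 in acute colitis and 0 after 2 cycles, and those that rose were 1 and 0. The rise of C1qc after 1 cycle was also lost there. Without the squamous arrays both counts were 0 after recovery, where 1 array was left and was assumed to vary like the other groups. Leaving out single arrays gave counts past both thresholds of 0 to 6 in acute colitis, 0 to 3 after 1 cycle, 2 to 4 after 2 cycles, 3 to 5 after 3 cycles and 3 to 4 after recovery, and of members that rose of 6, 3 to 5, 4 to 5, 5 and 5. In acute colitis against the mean of the cycles the count that was higher was 1, Cfb, with a random block by label letter, without dim probe sets, with probe sets of 1 symbol only and without the squamous arrays, and 0 to 1 without single arrays. The cause of these changes was not tested. Averaging all probe sets of a gene changes nothing by construction, since each member has 1. No paired analysis was possible because the mouse codes are not shared between groups.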
